A study of Mus musculus with 24 samples.

Results

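The BATdKO mice carried floxed alleles of both Tbl1x, which encodes TBL1, and Tbl1xr1, which encodes TBLR1, together with the Ucp1-CreERT2 transgene, and this account compares them with Cre- controls in the cold. The members were chosen by label alone: the 6 libraries labelled Ucp1CreERT2 positive at 8 °C and the 6 labelled Ucp1CreERT2 negative at 8 °C, 12 of the 24 libraries in the series, with only these 12 in the model. TBL1 and TBLR1 are exchange factors of the NCoR and SMRT corepressor complexes, which carry the histone deacetylase HDAC3 to nuclear receptors and other DNA-bound factors and keep their target genes quiet until a ligand or signal arrives. Brown adipose tissue (BAT) burns fatty acids and glucose to make heat through uncoupling protein 1 (UCP1). In the cold, noradrenaline acting on β-adrenergic receptors and cAMP drives that programme, and the tissue refills its lipid droplets by uptake from lipoproteins and by its own fatty acid synthesis.

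Both groups were homozygous for the floxed TBLR1 and TBL1 alleles, both received tamoxifen, and both were kept for 6 days at 8 °C, reached by stepwise cooling from 22 °C. They differed in the transgene, a tamoxifen-inducible Cre driven by the Ucp1 promoter, so that deletion is expected in Ucp1-expressing cells and not in the other cells of the tissue, whose RNA stays in a bulk sample. Each group held 6 mice on a C57BL6/N background, 1 library a mouse, and tissue was taken 3 weeks after tamoxifen. The labels call the animals female and give the age at tamoxifen in years, which cannot hold for mice, so no age is given here. The study describes the mice of this experiment as male and names fewer mice a group than the libraries analysed here, and which libraries that number covers is not given in the sources used here. It also gives 3 days at 8 °C for the sequenced mice, where the labels give 6 days. Gene-level counts came from a 3′ tag protocol, with 5449299 to 9911940 counts a library under the Cre- label and 2738613 to 11355373 under the BATdKO label. Levels are given as CPM, counts scaled to a common library size with TMM factors. Mouse m1 labelled BATdKO was the shallowest library, and its median correlation with the other 11 libraries, 0.961, was the lowest of the 12.

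The tissue label was checked against marker genes before any comparison. Ucp1 lay between 912 and 1943 CPM over the 12 libraries, Fabp4 between 638 and 2262 CPM, Plin1 between 122 and 230 CPM and Adipoq between 75.7 and 171 CPM. Liver-type transcripts were present as well and at higher levels: Alb, which encodes serum albumin, lay between 8361 and 13475 CPM, and the 38 genes named as Mup family members took 11.45% to 15.92% of all counts. The 18 hepatocyte markers together took 5.68% to 7.50% of counts under the Cre- label and 5.34% to 7.43% under the BATdKO label. All 18 leaned to the BATdKO label, with a median log2 difference of 0.09, and 1 of them, Hp, was called higher there. Every library also held both Xist, at 19.3 to 40.6 CPM, and the Y-linked gene Ddx3y, at 21.8 to 32.1 CPM, whichever label it carried. The median of Xist was 31.2 CPM under the Cre- label and 20.4 CPM under the BATdKO label, and that of Ddx3y 26.0 and 27.2 CPM. None of the 5 sex-linked genes tested was called by edgeR, but 1 was called lower without m1 labelled BATdKO. The part of this background in the differences below was not tested.

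The targeted genes came first, as the check of the labels. Tbl1xr1 (chr3:22076652-22216594, plus strand) lay between 17.2 and 23.2 CPM under the Cre- label, with a median of 19.8, and between 31.8 and 41.5 CPM under the BATdKO label, with a median of 37.1. The 2 groups did not overlap, and the level was higher, not lower, under the label of the deletion, by 0.92 ± 0.09 on the log2 scale (SE, edgeR adjusted p = 1.01e-06). Tbl1x (chrX:77511013-77662983, plus strand) lay between 36.6 and 41.1 CPM in the Cre- libraries and between 39.9 and 59.2 CPM in the libraries labelled BATdKO. It too was higher under the BATdKO label, by 0.39 ± 0.08 (adjusted p = 0.00674), with 1 mouse of the 6 inside the Cre- range. The non-coding gene Gm43672, on the opposite strand and 509 bases before the start of Tbl1xr1, moved with it, by 0.94 ± 0.17 (adjusted p = 0.00219). Which exons the floxed alleles remove is not given in the sources used here, and a tag at the 3′ end of a transcript does not test the loss of an exon that lies elsewhere. Since neither gene fell, the groups are called by their labels throughout.

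Of the other subunits of the complex, Ncor1, the large scaffold, rose by 0.29 ± 0.06 (adjusted p = 0.00653), from 193 to 207 CPM under the Cre- label to 232 to 267 CPM under the BATdKO label, with no overlap. Hdac3 was at a median of 3.92 CPM under the Cre- label and 3.33 CPM under the BATdKO label, a difference of -0.24 ± 0.20 that was not called. In all, 3 of the 12 tested genes of the list of this complex were called, all higher, and these were Tbl1xr1, Ncor1 and Tbl1x. Of the 27 nuclear receptor genes, whose products such complexes bind, 1 was called, Esrrg, which encodes the oestrogen-related receptor γ and rose by 0.62 ± 0.17 (adjusted p = 0.0519). Esrrg was not called without m1 labelled Cre- or without m2 labelled BATdKO. It was also lost with DESeq2, with all 24 libraries in the model and at an adjusted p under 0.05. The same held with the muscle marker share of each library as a covariate, and without both m1 labelled BATdKO and m5 labelled Cre-.

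Over the whole table, 477 of 11892 genes tested (4.01%) differed between the labels at an adjusted p under 0.1. Of these, 171 (1.44%) were higher and 306 (2.57%) were lower under the BATdKO label. The calls held 26 genes higher and 81 lower by at least 1 on the log2 scale, and the median size was 0.52 among the higher and 0.70 among the lower genes. In 132 genes (1.11%) every library labelled BATdKO lay above every Cre- library, and in 116 genes (0.975%) every one lay below. The median difference over all genes tested was -0.0028. These shares are the background against which the gene lists are read below, and the lists are described by counts, with no test of a list. All lists were chosen with earlier results of these data known, which can raise the share called.

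**Figure D1:**
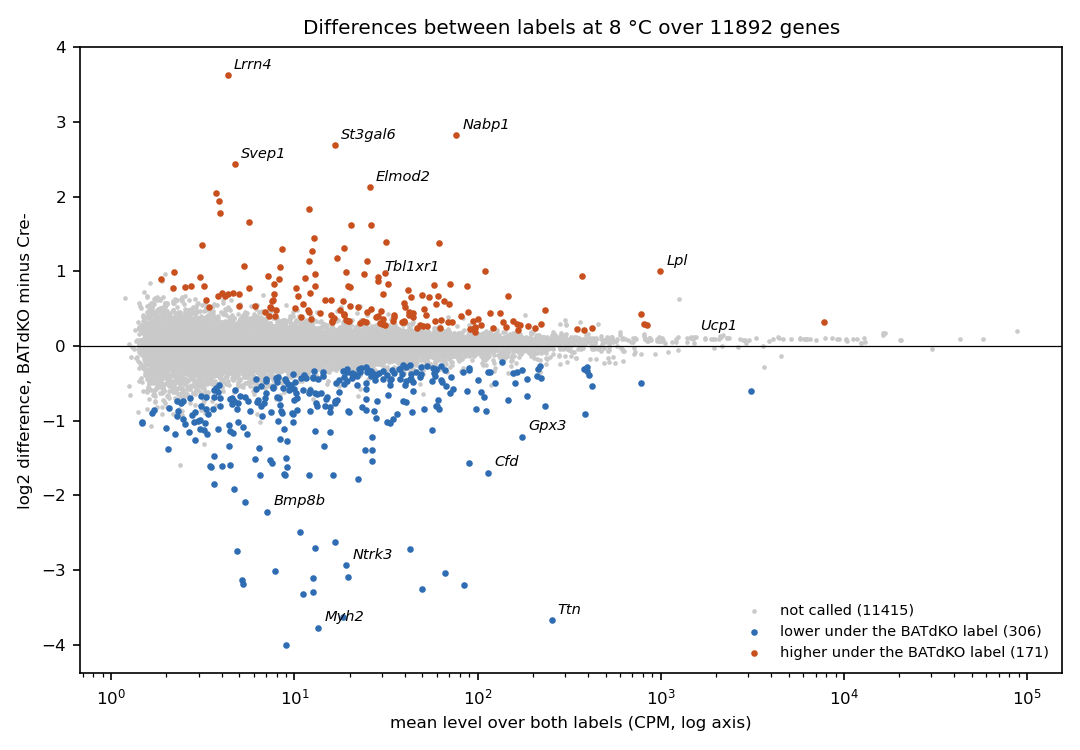
Log2 difference between the labels (BATdKO minus Cre-, vertical axis) against the mean level over both labels (CPM, log axis) for each of the 11892 genes tested, with the 171 genes called higher in orange, the 306 called lower in blue and the others in grey. Called genes lie at all levels, and the largest falls belong to muscle genes such as Myh2 and Ttn.

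Among the genes that rose, the smallest p belonged to Nabp1 (chr1:51465862-51478425, minus strand), which encodes a single-stranded DNA binding protein. It lay between 13.6 and 23.4 CPM in the Cre- libraries, with a median of 18.4, and between 95.9 and 231 CPM in those labelled BATdKO, with a median of 119, a rise of 2.82 ± 0.18 (adjusted p = 1.39e-08). The lowest BATdKO library was thus well above the highest Cre- library, and m1 labelled BATdKO stood highest. Gngt2 (chr11:95837216-95845734, plus strand), a G protein γ subunit known from cone photoreceptors, rose from 10.7 to 14.0 CPM (median 12.7) to 30.9 to 51.5 CPM (median 38.6), by 1.62 ± 0.12 (adjusted p = 4.58e-08). St3gal6, a sialyltransferase of the Golgi, rose from 2.37 to 5.74 CPM (median 4.42) to 19.6 to 48.3 CPM (median 27.1), by 2.69 ± 0.21. Neither gene overlapped between the labels, and St3gal6 was the only one called of the 14 sialyltransferases tested.

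Svep1, which encodes a large adhesion protein of the extracellular matrix, rose from 0.539 to 1.80 CPM (median 1.55) to 6.54 to 10.9 CPM (median 7.75), by 2.44 ± 0.20. Dgat2, the enzyme that adds the last fatty acid in triglyceride synthesis, rose from 239 to 285 CPM (median 250) to 429 to 626 CPM (median 476), by 0.94 ± 0.08 (adjusted p = 4.78e-07). Rgs2, which shortens G protein signals by speeding GTP hydrolysis, rose from 26.5 to 39.6 CPM (median 33.9) to 76.8 to 122 CPM (median 78.7), by 1.38 ± 0.12. All 3 separated the labels fully. The largest rise in size was that of Lrrn4, a leucine-rich repeat protein known from mesothelium, at 3.62 ± 0.32, from 0.315 to 0.898 CPM under the Cre- label to 3.69 to 15.4 CPM under the BATdKO label. Ivns1abp, Ighm and Socs2 followed, with rises of 0.81 ± 0.07, 1.45 ± 0.14 and 1.31 ± 0.13, and the predicted gene Gm45716, which rose by 1.83 ± 0.19, overlaps Mmd on the same strand, so that its reads may belong to that gene. Gngt2, St3gal6, Svep1 and Ivns1abp each overlap a gene on the other strand (Abi3, Dcbld2, Gm26889 and Gm10138), and the strand setting of the counting is not given in the sources used here, so reads of such pairs cannot be told apart.

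Among the genes that fell, the smallest p belonged to Ntrk3 (chr7:78175959-78738012, minus strand), the receptor TrkC for neurotrophin 3. It lay between 25.9 and 44.4 CPM in the Cre- libraries, with a median of 34.3, and between 2.01 and 9.11 CPM under the BATdKO label, with a median of 3.35, a change of -2.94 ± 0.24 (adjusted p = 1.90e-07). S100b, a calcium-binding protein made by glia and also by brown adipocytes, fell from 25.2 to 49.6 CPM (median 32.5) to 8.12 to 14.6 CPM (median 8.67), by 1.77 on the log2 scale. Ppp1r1a, the protein phosphatase inhibitor that is active once protein kinase A has phosphorylated it, fell from 8.52 to 13.0 CPM (median 10.3) to 2.94 to 4.25 CPM (median 3.99), a change of -1.53 ± 0.14. In none of the 3 did the labels overlap.

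Itih5, which encodes a hyaluronan-binding matrix protein of adipose tissue, fell from 25.0 to 45.9 CPM (median 37.8) to 14.0 to 18.7 CPM (median 15.7), a change of -1.22 ± 0.12. Fhl1, a LIM-domain protein abundant in muscle, fell from 14.7 to 22.5 CPM (median 18.8) to 3.14 to 8.65 CPM (median 4.98), a change of -1.73 ± 0.18. Fhl1 kept its call in the fit that had the muscle marker share of each library as a covariate. The next genes were Gja1 (connexin 43), at -1.73 ± 0.19, the cell cycle factor E2f2, at -1.12 ± 0.12, the fructose transporter Slc2a5, at -1.33 ± 0.16, and the matrix protein Prelp, at -0.86 ± 0.11. All 4 separated the labels, as did the non-coding Gm47595, at -1.71 ± 0.18. Prelp overlaps an antisense gene, Gm15851, with the same limit.

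**Figure D2:**
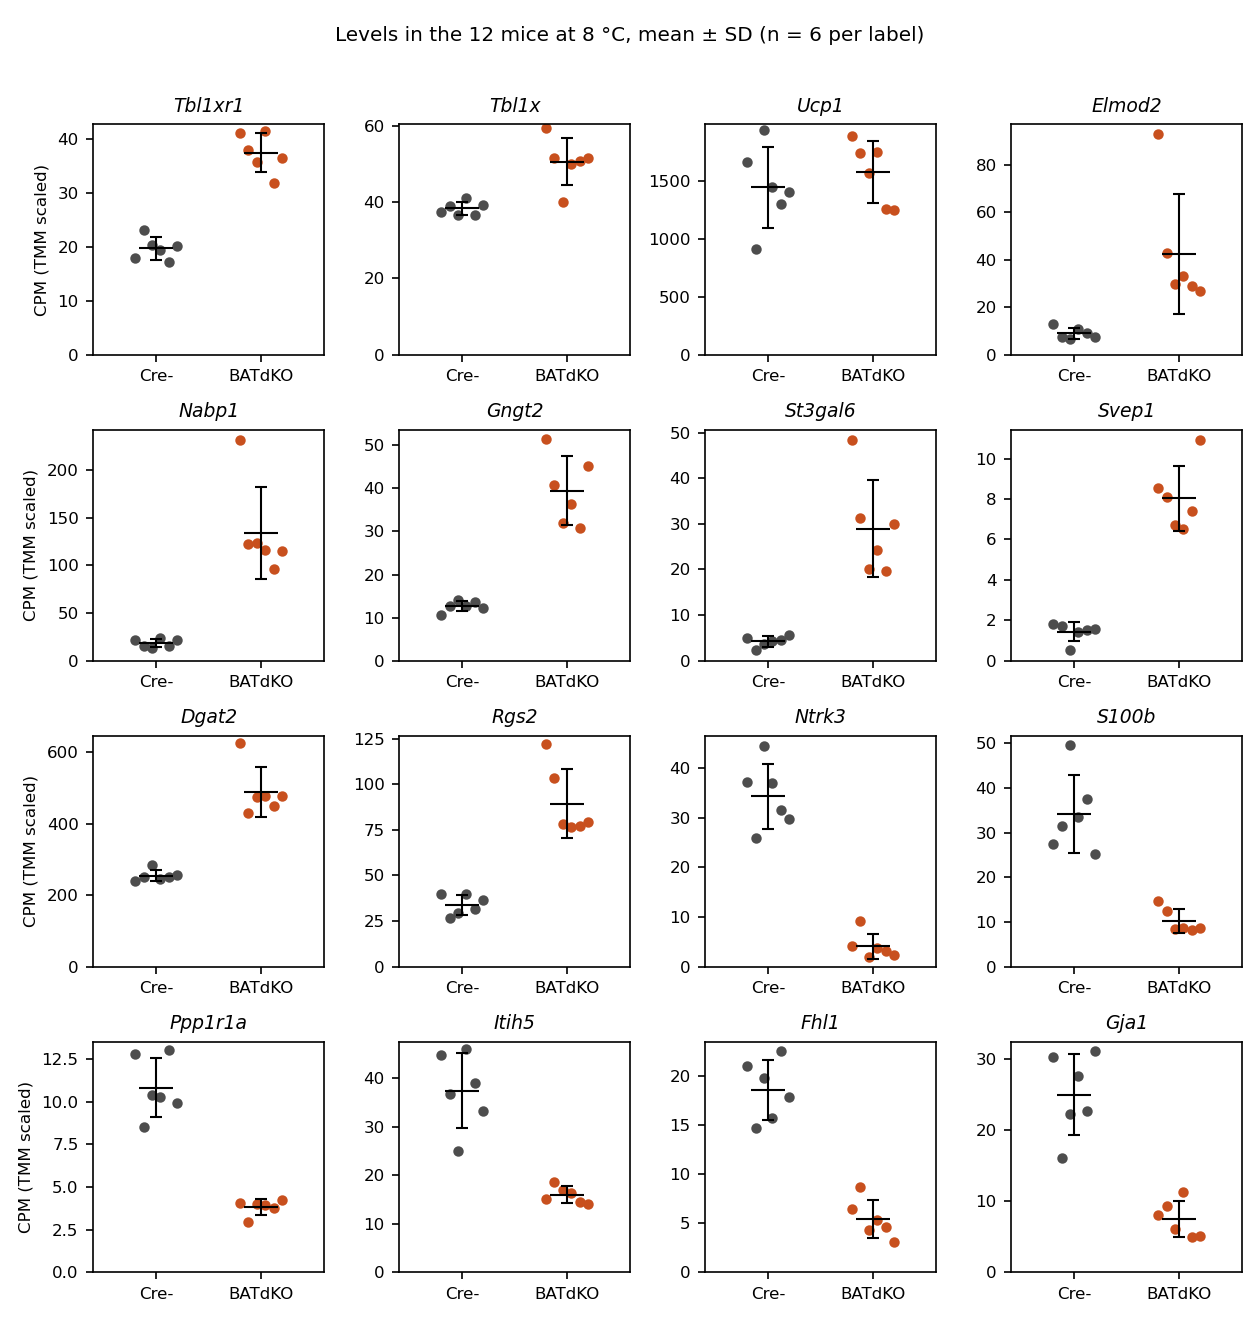
Level in CPM (vertical axis, from 0) of 16 genes in each of the 6 Cre- and 6 BATdKO mice at 8 °C, with the mean and SD in black. Tbl1xr1 and Tbl1x stand higher under the BATdKO label, Ucp1 overlaps, Elmod2 and the next 6 genes stand higher and the last 6 stand lower, with m1, plotted first in each group, the highest BATdKO mouse for Nabp1, St3gal6, Dgat2 and Elmod2.

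The thermogenic genes did not move as a block. Ucp1 (chr8:83290352-83298452, plus strand) lay between 912 and 1943 CPM in the Cre- libraries, with a median of 1428, and between 1256 and 1890 CPM under the BATdKO label, with a median of 1659. The groups overlapped and the difference of 0.13 ± 0.14 was not called (adjusted p = 0.784). Of the 15 tested genes of the thermogenic list, 2 were called higher and 3 lower, with a median of -0.18. Bmp8b, a secreted factor that raises the response of brown fat to noradrenaline, fell from 8.37 to 18.7 CPM (median 10.9) to 0.811 to 4.23 CPM (median 2.26), a change of -2.22 ± 0.25. Adrb3, the β3-adrenergic receptor, fell from 38.8 to 53.5 CPM (median 44.5) to 13.8 to 32.4 CPM (median 22.7), a change of -0.98 ± 0.15 (adjusted p = 3.40e-04). Neither overlapped between the labels, and both overlap antisense genes (Gm17244 and Ppie with Bmp8b, Gm45470 with Adrb3). Cidea, a lipid droplet protein that marks brown adipocytes, was the third, at -0.39 ± 0.11, but only 3 of the 12 leave-one-mouse-out fits kept its call. Elovl3, which elongates fatty acids in cold-exposed brown fat, rose by 0.30 ± 0.07 and Esrrg, with the limits given above, was the second gene called higher. The coactivator gene Ppargc1a (0.06 ± 0.14), Prdm16 (-0.22 ± 0.20), Dio2 (0.54 ± 0.20) and Cox7a1 (-0.01 ± 0.13) were not called.

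Several signalling genes between receptor and kinase were called higher while Adrb3 was lower. Of 26 tested genes of the adrenergic and cAMP list, 4 were called higher and 1 lower, and the median was -0.02. Besides Rgs2, Gnai1, which encodes the inhibitory α subunit that restrains adenylyl cyclase, rose from 10.1 to 16.7 CPM (median 12.8) to 22.3 to 29.5 CPM (median 25.8), by 0.99 ± 0.12 (adjusted p = 1.58e-05). Its groups did not overlap. Prkaca, the catalytic subunit of protein kinase A, rose by 0.34 ± 0.07 and Adcy9, an adenylyl cyclase, by 0.41 ± 0.10. Of the 15 immediate early genes tested, Jun alone was called, at 0.60 ± 0.10.

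Transcripts for several consecutive steps of fatty acid synthesis were lower under the BATdKO label. Of the 16 genes of the de novo lipogenesis list, 6 were called lower and 2 higher, a share of 50% against 4.01% over all genes, with a median of -0.23. The list was chosen with earlier results of these data known, so the share is no test of the pathway. Of its called members, the study itself names Acaca, Fasn, Me1, Scd1 and Scd2 as changed between these labels in the cold. Slc25a1, the mitochondrial carrier that exports citrate, lay between 138 and 216 CPM under the Cre- label, with a median of 185, and between 87.7 and 123 CPM under the BATdKO label, with a median of 115. The labels did not overlap, and the change was -0.72 ± 0.10 (adjusted p = 1.64e-04). Acly, which splits citrate into cytosolic acetyl-CoA, changed by -0.53 ± 0.13. Acaca, which carboxylates acetyl-CoA, fell from 374 to 567 CPM (median 533) to 140 to 332 CPM (median 284), a change of -0.91 ± 0.15 with no overlap. Fasn, the fatty acid synthase, changed by -0.60 ± 0.14 (adjusted p = 0.0180), and its lowest Cre- library, at 2927 CPM, lay just inside the BATdKO range. Acss2 and Me1 were also called lower, at -0.32 ± 0.09 and -0.33 ± 0.09. The desaturases went the other way: Scd2 rose by 0.69 ± 0.17 and Scd1 by 0.32 ± 0.09 (adjusted p = 0.0677). The regulators of this pathway, Srebf1 (-0.29 ± 0.17), Mlxipl (-0.22 ± 0.07) and Thrsp (-0.11 ± 0.10), were not called by edgeR over the 12 libraries. Mlxipl was called lower by DESeq2, with robust dispersions and without m2 or m6 labelled Cre-, and Srebf1 was called lower without m5 labelled Cre-. Me1 and Scd1 were each called in 4 and Acss2 in 5 of the 12 leave-one-mouse-out fits. Acly was not called with all 24 libraries in the model or with robust dispersions, and Fasn was not called with robust dispersions. Over the other settings tried, 3 to 7 genes were called lower, with 4 under the muscle covariate. Leaving out 1 mouse at a time left 4 to 7 genes called lower, and 1 gene called higher in 8 of the 12 fits, those without m1, m2, m3 or m6 labelled Cre- and without m1, m2, m3 or m4 labelled BATdKO.

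Several genes that build and store triglyceride were higher. Of 12 tested triglyceride synthesis genes 3 rose and none fell, namely Dgat2, Lpin1, the phosphatidate phosphatase, by 0.67 ± 0.12, and Acsl1, which activates long-chain fatty acids, by 0.43 ± 0.08. Dgat1, the other enzyme of the last step, was not called. Among 15 lipid droplet genes Cidec and Plin2 rose, while Plin4 and Cidea fell. Cidec, which fuses lipid droplets, went from 56.6 to 83.6 CPM (median 74.5) to 120 to 200 CPM (median 140), by 1.01 ± 0.11 with no overlap, and Plin2, a droplet coat protein, changed by 0.30 ± 0.08. Plin2 was not called without m1 or m6 labelled Cre- or without m2 labelled BATdKO. Of the 12 lipolysis genes none was called by edgeR, 3 had an unadjusted p under 0.05 and the median was 0.06. Pnpla2, the triglyceride lipase, differed by -0.03 ± 0.12 and Mgll, the monoglyceride lipase, by 0.04 ± 0.07.

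Uptake genes were split as well. Lpl, the lipase that frees fatty acids from lipoproteins, lay between 514 and 765 CPM under the Cre- label, with a median of 690, and between 935 and 1990.2 CPM under the BATdKO label, with a median of 1245. The labels did not overlap, and Lpl rose by 1.00 ± 0.14 (adjusted p = 1.26e-04). Angptl4, the secreted inhibitor of that lipase, rose by 0.75 ± 0.10, from 27.7 to 38.0 CPM to 41.8 to 66.1 CPM. Fabp3, a fatty acid carrier protein, rose by 1.39 ± 0.24, from 13.4 to 23.3 CPM to 18.1 to 76.7 CPM, with some overlap. A pseudogene of Fabp3, Fabp3-ps1, was called higher too, and reads of the pair may be shared. Slc27a1, the transporter FATP1, fell from 9.54 to 19.8 CPM to 4.43 to 8.89 CPM, a change of -1.02 ± 0.19. The other 14 of the 18 genes of this list were not called.

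**Figure D3:**
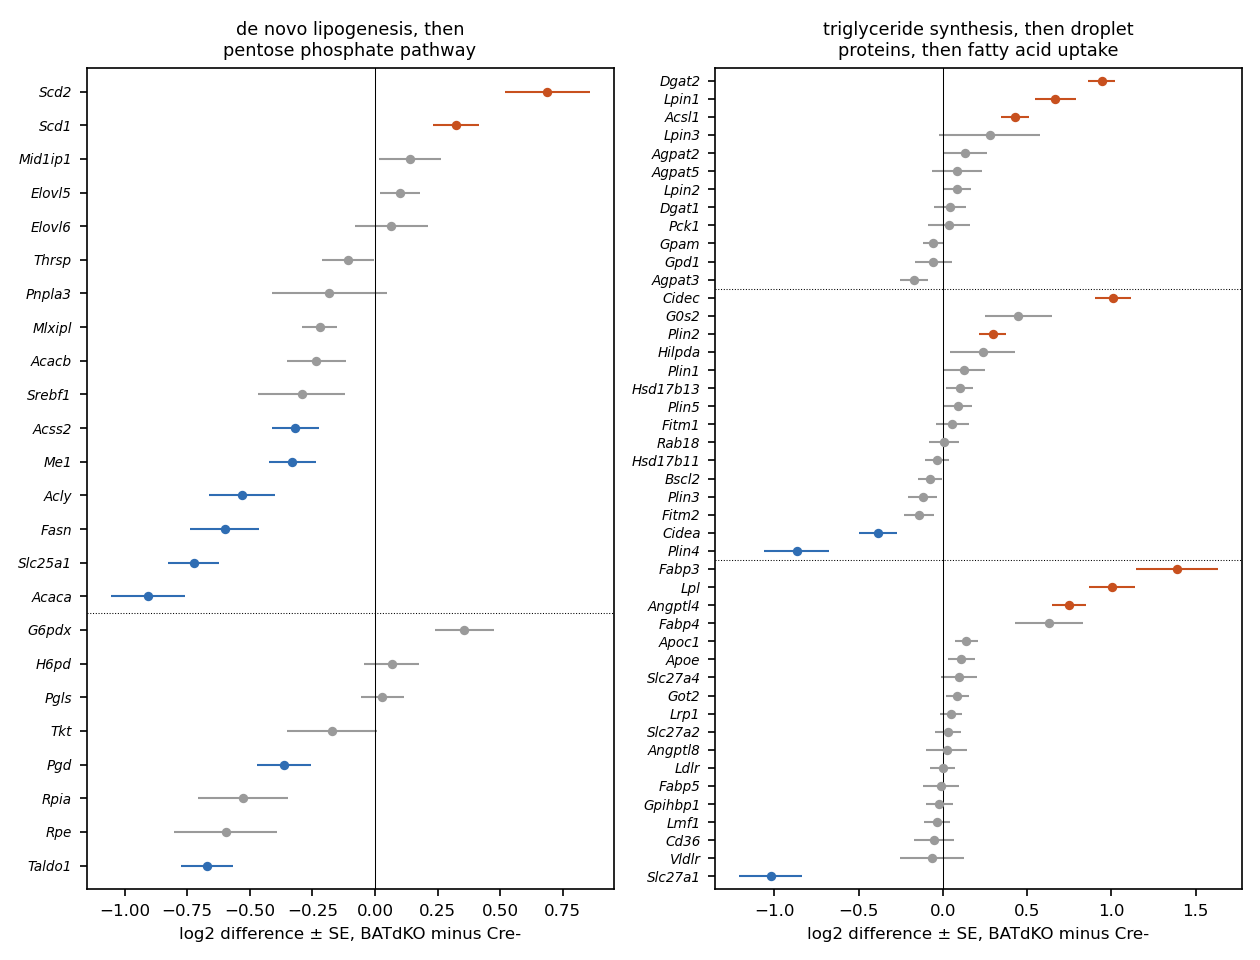
Log2 difference between the labels with its SE (horizontal axis, BATdKO minus Cre-) for each tested gene of 5 lipid and sugar phosphate lists, with genes called higher in orange, called lower in blue and not called in grey. Acaca, Slc25a1, Fasn and Acly lie on the negative side, and Dgat2, Cidec, Lpl and Fabp3 on the positive side.

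Oxidation of fatty acids showed no common direction. In the mitochondrial list of 22 genes 2 were called higher, Acsl1 and Etfb, the electron transfer flavoprotein subunit, and 2 lower, Acot2 and Acsl5, with a median of -0.03. None of 22 peroxisomal genes was called by edgeR, with 1 at an unadjusted p under 0.05 and a median of 0.05. The thioesterases, which release free fatty acids from CoA, had 3 of 11 called lower, Acot2 (-0.62 ± 0.14), Acot11 (-0.75 ± 0.19) and Acot1, which is close in sequence to Acot2 so that reads may be split between them. Acot1 was called in 3 and Etfb in 8 of the 12 leave-one-mouse-out fits, and Acot1 was not called by DESeq2.

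Glucose genes were called mostly lower. Of 22 tested glycolysis and glucose uptake genes 4 fell, namely Hk1 (-0.80 ± 0.15), Pfkl (-0.68 ± 0.14), Gpi1 (-0.41 ± 0.10) and Aldoa (-0.49 ± 0.13). These are a hexokinase, a phosphofructokinase and the enzymes on either side of the latter. Another hexokinase, Hk2, had a mean of 141 CPM under the Cre- label against 18.9 CPM for Hk1. Neither Hk2 (-0.52 ± 0.17) nor the phosphofructokinase Pfkp (-0.38 ± 0.15) was called. Aldoa was not called with all 24 libraries in the model, with robust dispersions or with the muscle share as a covariate. The 1 gene that rose was Pfkfb3, which makes the activator of phosphofructokinase, from 41.3 to 64.9 CPM (median 48.0) to 64.3 to 122 CPM (median 90.2), by 0.84 ± 0.13. Its groups touched at the edge. Taldo1, the transaldolase of the pentose phosphate pathway, fell from 179 to 291 CPM (median 222) to 118 to 164 CPM (median 144), a change of -0.67 ± 0.10 (adjusted p = 4.65e-04) with no overlap. It was 1 of 2 genes called of 8 in that pathway, with a median of -0.27 over the 8. The other, Pgd, at -0.36 ± 0.11, was called in 4 of the 12 leave-one-mouse-out fits, and was lost without m1, m3 or m5 labelled Cre- and without m1, m2, m3, m5 or m6 labelled BATdKO. In glycogen metabolism 3 of 17 fell, the branching enzyme Gbe1 (-0.34 ± 0.07), the phosphorylase Pygl (-0.28 ± 0.07) and Ppp1r3d (-1.15 ± 0.27), a glycogen-targeting subunit of protein phosphatase 1. Of 13 genes at the entry of pyruvate to the mitochondrion 2 were called lower and 1 higher. Dlat, a subunit of pyruvate dehydrogenase, changed by -0.57 ± 0.13 and Pdk1, a kinase that inhibits this enzyme, by -0.49 ± 0.10. Pcx, the pyruvate carboxylase, was the gene called higher, at 0.19 ± 0.06 (adjusted p = 0.0943), with no overlap between the labels. It was called in 3 of the 12 fits that left out 1 mouse, and not with robust dispersions, all 24 libraries in the model or the muscle share as a covariate.

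In the respiratory chain the shares called, 2.7% for complex I and 2.63% for complexes II to V, were near the 4.01% over all genes. Of 37 complex I genes 1 was called, Ndufs1, at -0.33 ± 0.09, which was lost without m1, m3 or m6 labelled Cre-, without m2 or m3 labelled BATdKO and with the muscle share as a covariate. Of 38 genes of complexes II to V 1 was called, the muscle isoform Cox6a2, which moved with the muscle markers described below. None of the 15 tested genes encoded by mitochondrial DNA as protein or ribosomal RNA was called by edgeR, with 1 at an unadjusted p under 0.05 and a median of 0.07, and none of 25 genes of mitochondrial biogenesis was called, with 2 at that p. Among 18 genes of the tricarboxylic acid cycle Sucla2 alone was called, at 0.49 ± 0.12. Outside these lists, 4 of the 16 mitochondrial transfer RNA genes tested were called, all higher, with mt-Tv at 1.18 ± 0.23 and mt-Tc at 0.97 ± 0.22. A tag protocol primed on poly(A) is not made for transfer RNA, and these counts may hold reads of flanking transcripts.

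Breakdown of branched-chain amino acids, a fuel of brown fat in the cold, had 5 of 20 genes called and all of them lower. Pccb, a subunit of propionyl-CoA carboxylase, fell from 71.8 to 87.1 CPM (median 82.9) to 55.8 to 69.4 CPM (median 60.8), a change of -0.41 ± 0.07 (adjusted p = 0.00129). The labels did not overlap in Pccb, nor in Mccc2, a subunit of methylcrotonyl-CoA carboxylase, at -0.76 ± 0.14, nor in Dbt, the branched-chain acyltransferase, at -0.31 ± 0.08, nor in Bckdk, the kinase that inhibits this step, at -0.43 ± 0.12. Mccc1, called in 3 of the 12 leave-one-mouse-out fits, completed the 5, and the median over the list was -0.06. The count fell to 3 without m1 or m6 labelled Cre- and without m3, m5 or m6 labelled BATdKO.

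Hormone signalling and secreted proteins also differed. In the insulin list, 4 of 27 genes rose, namely Irs2, the receptor substrate, by 0.97 ± 0.12, Akt1, the kinase, by 0.82 ± 0.14, Foxo1, the transcription factor that Akt holds outside the nucleus, by 0.41 ± 0.08, and Tbc1d4, a Rab GTPase-activating protein of glucose transport, by 0.61 ± 0.18, called in 5 of the 12 leave-one-mouse-out fits. Mtor was called lower, at -0.39 ± 0.11, called in 4 of those fits. Socs2, a feedback inhibitor of growth hormone signalling, lay between 8.99 and 11.9 CPM under the Cre- label and between 19.6 and 36.1 CPM under the BATdKO label. The adipokine list had 5 of 15 genes called, all lower: Bmp8b, Cfd, Adipoq, Vegfb and Retn. Cfd, the complement factor adipsin, lay between 54.4 and 264 CPM under the Cre- label, with a median of 186, and between 13.9 and 89.7 CPM under the BATdKO label, with a median of 59.9, a change of -1.69 ± 0.33 (adjusted p = 0.00451). The ranges overlapped from 54.4 to 89.7 CPM, and those of Adipoq, at -0.49 ± 0.11, overlapped too. The count of 5 fell to 3 without m1 or m6 labelled Cre- and without m3, m4 or m6 labelled BATdKO.

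**Figure D4:**
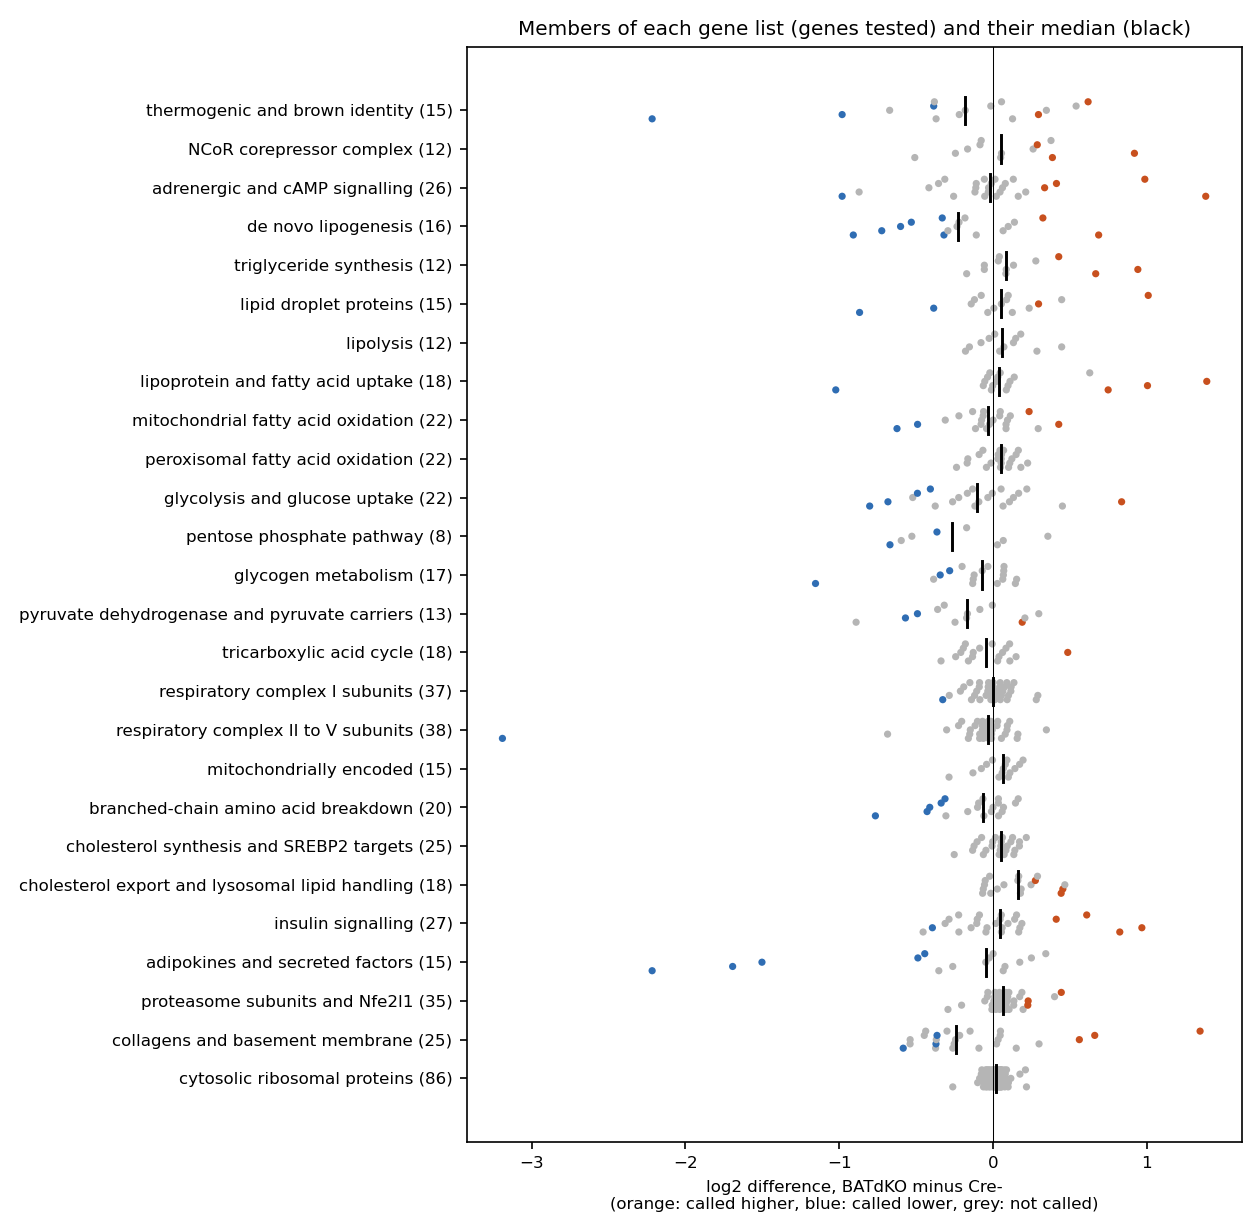
Log2 difference between the labels (horizontal axis, BATdKO minus Cre-) of each tested member of 26 gene lists, 1 row a list, with the number tested in brackets, the median as a black bar, genes called higher in orange, called lower in blue and not called in grey. Ribosomal, mitochondrially encoded and complex I genes cluster near 0, and lipogenesis, pentose phosphate and collagen medians lie below it.

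Further lists held single genes with clear differences. Tfrc, the transferrin receptor that brings iron into cells, rose from 7.89 to 11.1 CPM (median 9.06) to 13.7 to 75.9 CPM (median 25.2), by 1.62 ± 0.30 (adjusted p = 0.00331), and Alas1, the first enzyme of haem synthesis, rose by 0.44 ± 0.08. Both separated the labels, and they were the 2 called of 21 iron and haem genes. Cholesterol synthesis held no call, with none of 25 genes called by edgeR and 2 at an unadjusted p under 0.05, while 3 of 18 genes of cholesterol export and lysosomal lipid handling rose, namely Abca1 (0.45 ± 0.07), Npc2 (0.44 ± 0.07) and Scarb2 (0.28 ± 0.07), with a median of 0.16. Alpl, the tissue-nonspecific alkaline phosphatase, rose by 1.27 ± 0.15. Gpx3, the secreted glutathione peroxidase, fell from 169 to 329 CPM (median 245) to 70.9 to 130 CPM (median 114), a change of -1.21 ± 0.16, and Cbr1, a carbonyl reductase, rose by 0.81 ± 0.09. Of 35 proteasome genes 28 had a difference above 0, with a median of 0.07 and 3 called higher, led by Psma1 at 0.44 ± 0.08. The count of 3 fell to 1 without m1 labelled Cre-.

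Nupr1, a stress-induced chromatin protein, fell by 1.61 on the log2 scale, the 1 gene called of 15 in the integrated stress response list. None of the 22 genes of the unfolded protein response was called by edgeR, with 0 at an unadjusted p under 0.05, and none of 86 ribosomal protein genes was, with 2 at that p. In the list of interferon-stimulated genes Apol6 alone was called of 32. Of 25 collagen and basement membrane genes 3 were called higher and 3 lower, with a median of -0.24. The pair Col4a1 and Col4a2, the main chains of the basement membrane collagen, rose by 0.56 ± 0.10 and 0.66 ± 0.10. Col4a1 lay between 43.7 and 67.2 CPM under the Cre- label and between 75.2 and 107 CPM under the BATdKO label, and neither chain overlapped between the labels. Lamb3, a laminin chain, was the third gene called higher, in 6 of the 12 leave-one-mouse-out fits and not by DESeq2. The collagen chains Col27a1, Col5a3 and Col6a3 were called lower, and that count fell to 1 without m2 or m3 labelled Cre- and without m6 labelled BATdKO.

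Col4a1 and Col4a2 lie head to head on chromosome 8. Together with Irs2 and the non-coding B930025P03Rik, which rose by 2.05 ± 0.24, they lie in a stretch from 10870422 to 11449287. In it 4 of 6 tested genes were called, all higher, against 4.01% called over all genes. The stretch was picked from many, each drawn to begin and end with a called gene, which by itself raises the share called. A second place on chromosome 8 lies beside Ucp1, the gene whose promoter drives the Cre transgene. Elmod2 (chr8:83312632-83332486, minus strand), a GTPase-activating protein for the small GTPase ARL2, lies 14179 bases beyond the end of Ucp1. It lay between 6.82 and 12.9 CPM in the Cre- libraries, with a median of 8.33, and between 26.8 and 92.9 CPM under the BATdKO label, with a median of 31.6, a rise of 2.12 ± 0.25 (adjusted p = 2.11e-05). The labels did not overlap. On the other side of Ucp1, Rnf150, a RING finger protein, fell from 5.03 to 7.81 CPM to 1.62 to 3.95 CPM, a change of -1.17 ± 0.18, and Scoc, the next tested gene beyond Elmod2, was at -0.12 ± 0.10. The sequence carried by the transgene and the place of its insertion are not given in the sources used here.

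Promoters were read for the genes above where RefSeq gives them. The window runs from 250 bases before to 50 after the start, on the strand of the gene, in build GRCm38.p6. The first 2 below are those of Nabp1, the rise with the smallest p (chr1:51478350-51478649, minus strand), and Elmod2, the neighbour of Ucp1 (chr8:83332437-83332736, minus strand). The other 2 are those of Col4a1 (chr8:11312777-11313076, minus strand) and Col4a2 (chr8:11312555-11312854, plus strand), which share 78 bases and moved together. Elmod2, Col4a1 and Col4a2 were chosen for printing after their values were seen. Capitals mark every match on either strand to 6 motifs: the cAMP response element (TGACGTCA), the E-box (CACGTG), the CCAAT box (letters as named), the core of nuclear receptor sites (AGGTCA), the TATA box (TATAAA) and the GC box (GGGCGG).
Nabp1: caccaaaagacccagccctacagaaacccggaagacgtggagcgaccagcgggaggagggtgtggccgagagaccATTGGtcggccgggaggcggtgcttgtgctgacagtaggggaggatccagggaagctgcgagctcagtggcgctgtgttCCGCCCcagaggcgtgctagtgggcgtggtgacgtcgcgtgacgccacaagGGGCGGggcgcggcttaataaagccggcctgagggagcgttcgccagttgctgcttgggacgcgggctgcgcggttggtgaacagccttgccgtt
Elmod2: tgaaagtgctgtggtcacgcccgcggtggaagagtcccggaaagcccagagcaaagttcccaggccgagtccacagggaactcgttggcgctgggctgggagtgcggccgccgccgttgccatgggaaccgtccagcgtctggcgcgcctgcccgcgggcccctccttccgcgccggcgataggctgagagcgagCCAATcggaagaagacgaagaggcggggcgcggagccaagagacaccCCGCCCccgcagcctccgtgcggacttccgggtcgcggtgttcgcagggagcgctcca
Col4a1: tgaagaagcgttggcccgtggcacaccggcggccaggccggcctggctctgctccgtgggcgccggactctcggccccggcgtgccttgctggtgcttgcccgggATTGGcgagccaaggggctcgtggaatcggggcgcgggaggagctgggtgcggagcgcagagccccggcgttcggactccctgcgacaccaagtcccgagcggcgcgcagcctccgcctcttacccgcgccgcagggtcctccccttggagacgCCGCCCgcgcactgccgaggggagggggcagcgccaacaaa
Col4a2: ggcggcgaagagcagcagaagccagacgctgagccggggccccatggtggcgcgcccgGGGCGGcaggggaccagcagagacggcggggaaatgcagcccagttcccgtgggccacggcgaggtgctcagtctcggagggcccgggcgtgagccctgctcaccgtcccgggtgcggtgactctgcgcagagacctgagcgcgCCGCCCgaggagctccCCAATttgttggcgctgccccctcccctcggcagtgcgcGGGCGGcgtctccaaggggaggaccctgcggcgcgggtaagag
All 4 windows hold both a CCAAT box and a GC box on 1 strand or the other, and none holds any of the other 4 motifs. The same search over the 8342 tested genes with a RefSeq window found the CCAAT box in 42.6% and the GC box in 67.6%, so neither match is rare. The shares were 37.7% and 70.8% among the 130 genes called higher with a window, and 43.1% and 64.7% among the 232 called lower. The nuclear receptor core was in 15.7% of all, 16.9% of the higher and 11.6% of the lower genes. The E-box was in 11.8%, 13.8% and 9.05%, the TATA box in 9.49%, 10.8% and 10.8%, and the cAMP response element in 3.49%, 1.54% and 1.29% of the same sets.

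Markers of other cell types moved with the labels in places, and fewer cells of a type cannot be told apart in bulk tissue from less RNA per cell. All 17 tested skeletal muscle markers were called lower, with a median of -3.09. Their summed share, over the 23 muscle markers in the table, ran from 0.00609% in m3 to 0.369% in m5 under the Cre- label and from 0.00592% to 0.0355% under the BATdKO label, so that m2, m3 and m4 labelled Cre- lay within or near the BATdKO range. The 17 calls fell to 11 without m1, 9 without m5 and 9 without m6 labelled Cre-, to 7 without m2 labelled BATdKO, to 6 with DESeq2 and to 3 without both m5 labelled Cre- and m1 labelled BATdKO. None of the 17 was called with robust dispersions or in the model of all 24 libraries. None was called with the muscle share as a covariate either. That share is the sum of these same markers, so that fit cannot test them. Atp2a1, Myh2, Ttn and Myh1, the calcium pump and filament proteins of muscle fibres, had the largest falls of all genes, at -4.00 ± 0.94, -3.77 ± 0.86, -3.66 ± 0.92 and -3.63 ± 0.90, and Atp2a1, Myh2 and Myh1 had a lowest Cre- library of 0 CPM. H19, the imprinted non-coding RNA, fell by 2.71 on the log2 scale over libraries from 1.26 to 63.8 CPM under the Cre- label, and was not called without m5 labelled Cre- or m2 labelled BATdKO, nor with the muscle share as a covariate. With that covariate 276 genes were called, 246 of them among the 477, and Tbl1xr1, Nabp1, Gngt2, St3gal6, Dgat2, Lpl, Elmod2, Ntrk3, S100b, Bmp8b, Adrb3 and Slc25a1 were among those kept.

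The nerve list held 3 tested genes, all with differences below 0 and an unadjusted p under 0.05 by edgeR. Of these, S100b and Pmp22 were called lower, both with no overlap between the labels, and Mbp was not called. Sox10, a defining gene of Schwann cells, is not among the 12615 genes of the table. The summed share of the 3 nerve genes ran from 0.00443% to 0.00738% under the Cre- label and from 0.00198% to 0.00276% under the BATdKO label. S100b, which brown adipocytes also make, had a mean of 34.1 CPM under the Cre- label against 12.3 CPM for Pmp22. Much of this share is thus S100b. The part of nerve cells in these falls was not tested. The 9 tested pericyte and smooth muscle markers all had differences below 0, with a median of -0.29 and 1 called, Cspg4, called in 5 of the 12 leave-one-mouse-out fits, and their summed shares, 0.0114% to 0.0135% against 0.00827% to 0.0109%, did not overlap either. Of 15 progenitor and fibroblast markers 1 was called, Gsn, the actin-severing gelsolin, at -0.85 ± 0.14, with a median of -0.29 over the list. The part of these cells in the falls of matrix genes was not tested. Of 18 endothelial and 15 macrophage markers none was called by edgeR, with 0 and 1 at an unadjusted p under 0.05 and medians of -0.09 and 0.09. Ighm, the immunoglobulin heavy chain of B cells, was called higher, while Igkc, the κ light chain, was at 0.16 ± 0.13 and not called, and no other B cell marker was tested.

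**Figure D5:**
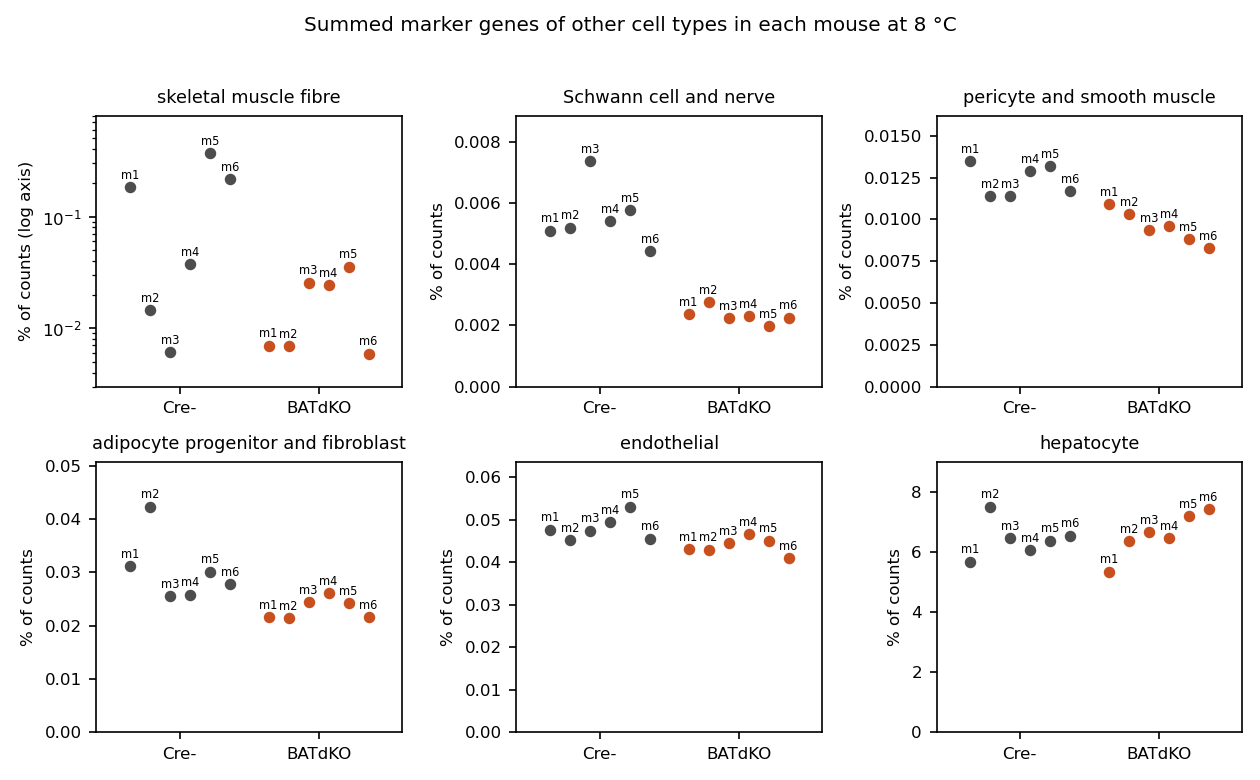
Summed marker genes of 6 other cell types as a percentage of all counts (vertical axis, log axis for muscle) in each of the 12 mice, numbered m1 to m6 within a label. Muscle shares run from 0.00609% to 0.369% under the Cre- label. The nerve share, much of it S100b, and the pericyte share separate the labels, and the hepatocyte share overlaps.

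The same labels were compared in 12 other mice kept at 30 °C for 4 days, fitted on their own, to see which of the differences were present outside the cold. No gene of 12204 tested was called there by edgeR (0%), 904 had an unadjusted p under 0.05, and DESeq2 called 3. Depth was lower at 30 °C, with 699703 counts in the shallowest library. Of the 171 genes higher at 8 °C, 170 were tested at 30 °C and 145 had the same sign. Of the 306 lower, 297 were tested and 204 had the same sign. The share with the same sign over all genes tested was not computed, so these counts have no background beside them. Elmod2 was at 8.34 to 32.5 CPM under the Cre- label and 13.0 to 55.4 CPM under the BATdKO label at 30 °C, a difference of 1.27 ± 0.35 (edgeR, unadjusted p = 0.00251, adjusted p = 0.588). Nabp1 differed by 1.96 ± 0.70 (adjusted p = 0.588) and Fhl1 by -2.09 ± 0.58 (adjusted p = 0.588), while Fasn was at 0.08 ± 0.14, Adrb3 at -0.05 ± 0.29 and Cbr1 at -0.08 ± 0.10.

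Whether a difference itself changed with temperature was tested as the interaction in a fit of all 24 libraries. Of the 477 genes 10 passed, 6 called higher and 4 called lower at 8 °C. The share passing over all genes tested was not computed, so this count has no background beside it. The 477 genes were picked by their difference in the 8 °C libraries, which also enter this fit. That tilts their difference of differences away from 0. Those above were Cbr1 (difference of differences 0.89, adjusted p = 0.00858), Ighm (1.32, adjusted p = 0.0185), Ivns1abp (0.72, adjusted p = 0.0303), Gngt2 (1.23, adjusted p = 0.0340), B930025P03Rik (2.02, adjusted p = 0.0363), Gm47595 (-1.63, adjusted p = 0.0600) and Dgat2 (0.81, adjusted p = 0.0715). For Tbl1xr1, Nabp1, Elmod2, Ntrk3, Fhl1, Fasn and Adrb3 the interaction did not pass, which does not show that the differences at both temperatures are equal.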

How the data were processed

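RNA of brown adipose tissue was read by QuantSeq 3′ mRNA-Seq, which yields 1 tag per transcript close to its 3′ end, so counts do not scale with transcript length. Per the paper's methods and the submitters' processing notes, the authors trimmed reads with BBDuk, aligned them with STAR to GRCm38 and summed them per gene with Rsubread. The deposited values are raw whole-number counts per gene. The annotation release, the strand setting and the rule by which genes were kept are not given in the sources used here. Genes with near-identical copies, such as the Mup family, mitochondrial genes with nuclear copies and Fabp3 with its pseudogene, had near-equal counts in the copies and are uncertain.

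From the counts, edgeR 4.0.16 in R 4.3.3 was fitted to the 12 libraries at 8 °C alone, with filterByExpr (minimum count 10; 723 of 12615 genes left out, 11892 tested), TMM factors, the quasi-likelihood test without covariates, and Benjamini-Hochberg adjustment over all genes tested, called at an adjusted p under 0.1. All p-values are two-sided. Differences are log2, BATdKO minus Cre-, with their SE. Totals ran from 2738613 to 11355373 counts, and low counts limit precision. Each group had 6 mice. DESeq2 1.42.0, RLE scaling, no filter, a 24-library model, robust dispersions, a stricter threshold of 0.05 and leaving out each mouse were alternatives. A muscle-share covariate and leaving out m1 labelled BATdKO with m5 labelled Cre- were chosen after seeing the data. The 30 °C libraries were fitted alone in the same way. The script was tested on simulated data. Motifs were counted with Python 3.11.15.

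The members and gene lists were chosen with earlier results of these data known. Named genes were both deleted genes and Ucp1, the 12 called genes with the smallest p and the 5 with the largest change in each direction, up to 4 called members of each list, and, in lists with none called, up to 2 of the most abundant. Other genes in the text were chosen after their values were seen, among them Gm43672, Hdac3, Adcy9, Scoc, B930025P03Rik, Igkc, Dgat1, the uncalled thermogenic and lipogenic genes and the mitochondrial transfer RNAs. Results for a few items are not reported here.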

Additional observations from a re-analysis of the deposited data

Results flagged for a closer look

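In groups of 6 mice, a highest or lowest library that stands far from its nearest neighbour relative to the range of the group is listed here. Chance alone gives about 1 such group in 20. Mouse m1 labelled BATdKO, the library with the fewest counts, was the one that stood apart most often. It was highest for Nabp1 (231.3 CPM, next library 123.5 CPM), Dgat2 (626.1 CPM, next 478.3 CPM), Lrrn4 (15.42 CPM, next 8.056 CPM) and Elmod2 (92.91 CPM, next 42.79 CPM). It was also highest for Cidec (200.4 CPM), Irs2 (45.85 CPM), Tfrc (75.87 CPM), Col4a1 (107.1 CPM), Psma1 (63.3 CPM) and Acsl1 (1081 CPM). The same mouse was highest for Dio2 (49.5 CPM), Dgat1 (82.77 CPM) and the transfer RNA genes mt-Tv (46.25 CPM) and mt-Tc (82.37 CPM), and lowest for Slc2a5 (3.652 CPM, next 7.942 CPM). Without it, Nabp1, Dgat2, Lrrn4, Elmod2, Irs2, Tfrc, Col4a1, Psma1 and Slc2a5 were still called in the same direction.

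Other mice labelled BATdKO stood apart for single genes. Mouse m2 was highest for Ntrk3 (9.11 CPM) and lowest for Ppp1r1a (2.945 CPM). Mouse m6 was lowest for Scd1 (6774 CPM) and Acot2 (37.86 CPM), and mouse m4 was highest for Pgd (171.9 CPM). Mouse m5 was lowest for Dbt (42.07 CPM) and Akt1 (25.1 CPM) and highest for the muscle gene Myh1 (9.864 CPM).

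Among the Cre- mice, m3 was lowest for Svep1 (0.5387 CPM) and highest for Pgd (243.7 CPM) and Scoc (35.55 CPM). Mouse m2 was lowest for Pfkl (90.22 CPM) and Vegfb (35.17 CPM) and had the highest summed share of progenitor and fibroblast markers (0.0423% of counts, next 0.0312%). Mouse m5 was lowest for Srebf1 (5.734 CPM) and mouse m4 highest for Fabp3 (23.34 CPM).

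For 7 named genes the difference between the labels itself differed between 8 °C and 30 °C by the interaction in edgeR. The 7 were picked by their differences at 8 °C, in libraries that also enter this fit. The difference of differences on the log2 scale was 1.23 for Gngt2, 0.812 for Dgat2, 0.72 for Ivns1abp, 1.32 for Ighm, 0.89 for Cbr1, 2.02 for B930025P03Rik and -1.63 for Gm47595, with adjusted p from 0.00858 to 0.0715.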

How the results depend on the processing

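None of the 477 genes was called in the opposite direction under any setting. With all 24 libraries in the model 227 genes were called, 87 higher and 140 lower, of which 220 were among the 477, and with the muscle share as a covariate 276 were called, 104 higher and 172 lower. The causes were not tested. Leaving out 1 mouse gave 344 to 585 calls, 135 to 189 higher and 209 to 408 lower, the fewest without m1 labelled Cre- and the most without m2 labelled Cre-. RLE scaling, no filter, DESeq2, robust dispersions and the threshold of 0.05 gave 324 to 484 calls. With the muscle covariate the difference changed sign for Hdac3 (0.027), Ttn (0.23), Cox6a2 (0.44), Myh1 (0.30), H19 (0.37) and Dgat1 (-0.023), none of them called there, and Dgat1 also without both doubted libraries (-0.017). Ttn and Myh1 are among the markers summed in that covariate, so the covariate fit cannot test them. Leaving out 1 mouse at a time moved uncalled differences near 0 to either side: Ppargc1a from -0.021 to 0.16, Cox7a1 from -0.10 to 0.061, Dgat1 from -0.021 to 0.092 and Pnpla2 from -0.11 to 0.052. No paired analysis was possible because the groups share no replicate numbers in the labels. Depth limits genes of a few CPM most, in m1 labelled BATdKO above all.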
